A study of Rattus norvegicus with 20 samples.

Results

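Synaptic vesicle and SNARE genes were taken from the array by symbol: every gene named Syn, Syt, Stx, Stxbp, Vamp, Sv2, Cplx, Syp, Syngr or Rims with a number or letter, together with Syp, Snap25, Snap23 and Snap29. The rule found 58 genes on 89 probe sets, out of 14217 genes that had a probe set with 1 symbol. A probe set is a group of short oligonucleotides that reports 1 transcript, and each gene was represented by its brightest probe set over all arrays. Of the 58 genes, 48 passed the filter on signal described below and were tested, among 18625 tested probe sets.

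The arrays were 1-colour Affymetrix rat arrays, with RNA of tissue labelled brain cortex from 20 male Sprague Dawley rats aged 20 weeks and weighing 250 to 300 g. In the first group 10 rats breathed 2% isoflurane, a volatile anaesthetic, in oxygen for 15 minutes, a dose of 1.4 MAC (the unit of anaesthetic potency). In the second group 10 rats breathed oxygen alone for the same time, and in both groups tissue was dissected after 6 hours of recovery. The labels call the arrays biological replicates, and each array stands for 1 rat. The RNA came from whole dissected tissue with all its cell types; networks of genes were the stated aim of the submitters' design text.

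Neurotransmitter release works through a set of proteins that pull a vesicle onto the presynaptic membrane. A vesicle SNARE such as VAMP2 zips together with the target-membrane SNAREs syntaxin-1 and SNAP-25. Complexins bind the assembled bundle, and some synaptotagmins couple its final fusion to calcium. Synapsins hold the reserve of vesicles, synaptophysin, synaptogyrins and SV2 proteins sit in the vesicle membrane, and RIM proteins hold docked vesicles near calcium channels at the active zone. Volatile anaesthetics are known to depress transmitter release, and syntaxin-1 and SNAP-25 are among the proteins studied as their presynaptic targets. Many other syntaxins and VAMPs act in membrane traffic of all cells, at the Golgi, endosomes or endoplasmic reticulum.

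The arrays did not all carry the signature of the labelled tissue. Pcp2, which marks Purkinje neurons of the cerebellum, had a log2 signal of 13.60 to 14.17 on 11 of them and of 4.46 to 10.67 on the other 9. The first are called Pcp2-high arrays below (isoflurane replicates 1, 3, 7, 8 and 9, and oxygen replicates 5 to 10), and the second Pcp2-low arrays (isoflurane replicates 2, 4, 5, 6 and 10, and oxygen replicates 1 to 4), parted at a log2 Pcp2 signal of 12. Over 7 cerebellar markers (Pcp2, Gabra6, Cbln1, En2, Fat2, Neurod1 and Zic1) the summed linear signal ran from 51782 to 69722 on Pcp2-high arrays and from 870 to 7291 on Pcp2-low arrays. Over 6 cortical markers (Fezf2, Emx1, Tbr1, Neurod6, Lmo3 and Nrgn) it ran from 1490 to 4877 on Pcp2-high arrays and from 14958 to 19749 on Pcp2-low arrays. By these sums the labelled cortex was borne out on the Pcp2-low arrays and not on the Pcp2-high arrays. The brightest cortical marker on Pcp2-low arrays was Nrgn, at a mean of 13.48. Taken singly, Fezf2, Emx1, Lmo3 and Nrgn were lower on Pcp2-high arrays without overlap. Neurod6 overlapped, with means of 10.04 on Pcp2-high and 10.45 on Pcp2-low arrays, and so did Tbr1, which was below the signal filter. Within the Pcp2-low set, isoflurane replicates 2, 4, 5 and 6 stood apart from the rest. Their Pcp2 signal was 5.44, 4.46, 5.93 and 4.92, against 10.67 on isoflurane replicate 10 and 7.63 to 8.78 on the 4 oxygen arrays. The log2 ratio of the 3′ to the 5′ control probe sets of Actb and Gapdh, a measure of RNA integrity that is higher where transcripts are shorter, was 1.28, 1.36, 1.59 and 1.50 on those 4 arrays. It was 0.75 on isoflurane replicate 10 and between 0.76 and 1.23 on the oxygen arrays of that set. Results are therefore given with the set as a term, within each set and without these 4 arrays. Without them the Pcp2-low set keeps 1 isoflurane array, replicate 10. A call lost in that fit may therefore reflect the smaller number of arrays alone.

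With the array set as a term, 7 of the 48 tested members were lower after isoflurane and 0 were higher (limma, adjusted p under 0.05). These 7 were Syn1, Syt3, Stx1a, Vamp2, Syp, Syt5 and Rims1: the best known synapsin, both SNAREs Stx1a and Vamp2 of the neuronal fusion complex, the vesicle protein synaptophysin, 2 synaptotagmins and an active-zone scaffold. Their mean signal after isoflurane was between 0.54 and 0.79 times that after oxygen. Over all tested probe sets 7.37% passed, 4.79% lower and 2.58% higher, against 14.58% of the tested members lower. These shares, here and below, are not of like sets. Members were the brightest probe sets of named genes, while all tested probe sets include dimmer and unnamed ones. Of the probe sets that passed, 65.0% were lower, or 79.4% after centring each array on its median. The median difference was -0.04 over the 48 members and 0.00 over all tested probe sets. At an unadjusted p under 0.05 stood 19 members and 5039 probe sets. In bulk tissue, fewer cells of a type and less RNA per cell cannot be told apart. By role, 1 of 2 tested synapsins was lower, with 1 of 7 VAMPs, 1 of 13 syntaxins and SNAPs, 1 of 5 vesicle membrane proteins, 2 of 12 synaptotagmins, 1 of 3 RIM genes, 0 of 4 syntaxin-binding proteins and 0 of 2 complexins.

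The count rested on how the arrays were combined. Within the Pcp2-low set 8 members were lower (16.67%) and 4 higher (8.33%), where 18.6% of all probe sets passed, 7.42% lower and 11.2% higher. Over all probe sets, higher calls thus outnumbered lower ones there, and the share of members higher was below that of all probe sets. Those lower there were all 7 named above and Syt11, at -0.94 (adjusted p = 0.0211 by limma). Within the Pcp2-high set 0 members passed (0.0% of all probe sets by limma), while 8 members and 2376 probe sets had an unadjusted p under 0.05. With no term for the set 0 members passed (0.397% of all probe sets), and 13 members and 2941 probe sets had an unadjusted p under 0.05. Without isoflurane replicates 2, 4, 5 and 6, 0 members and 0.0% of all probe sets passed, and 7 members and 3016 probe sets had an unadjusted p under 0.05. With the 3′/5′ ratio as a covariate 8 members were lower and 0 higher, where 6.08% of all probe sets were lower and 3.11% higher. Without oxygen replicate 4 the members lower numbered 4, where 480 probe sets passed in either direction. Members higher numbered 3 without isoflurane replicate 9, 2 without isoflurane replicate 10 and 1 without oxygen replicate 10. In those fits 2938, 1921 and 936 probe sets passed in either direction.

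**Figure D1:**
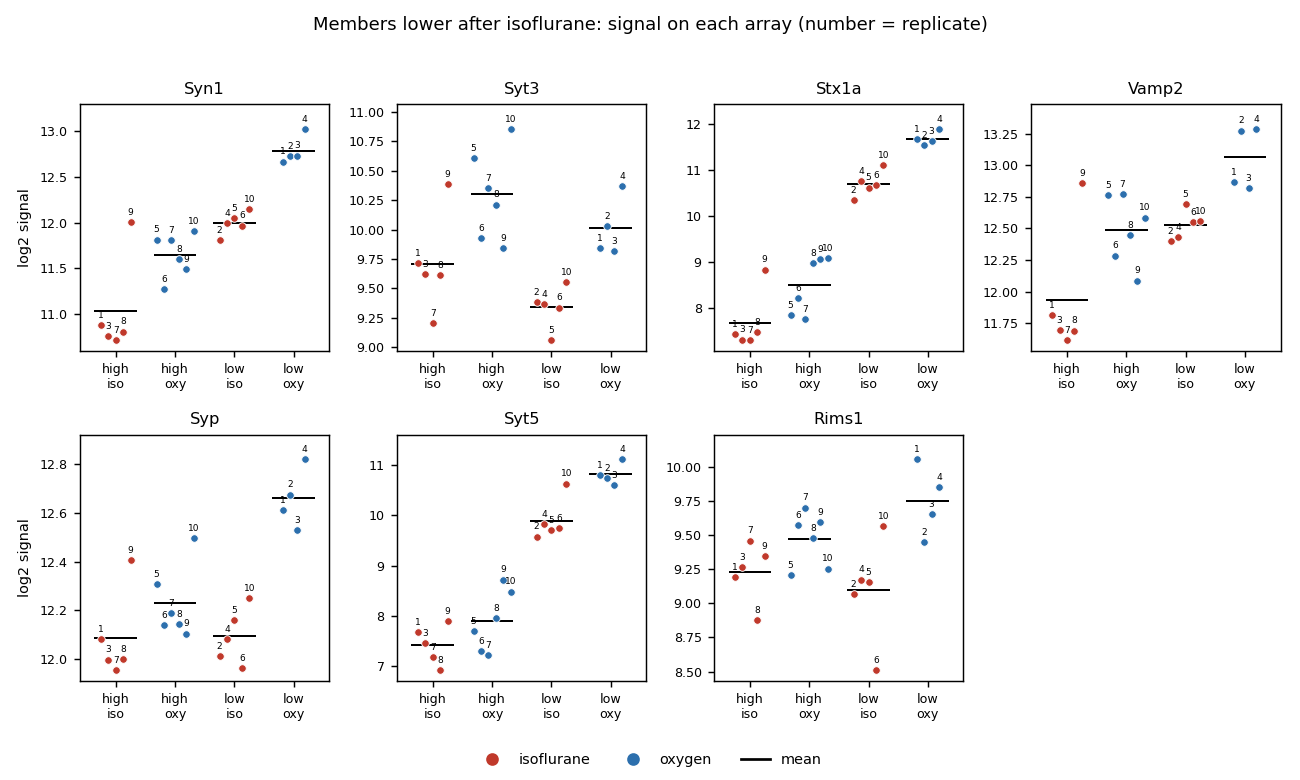
Log2 signal (vertical axis) of the 7 members lower after isoflurane, 1 point per array numbered by replicate, in isoflurane (red) and oxygen (blue) arrays of the Pcp2-high and Pcp2-low sets, with the group mean as a bar. Isoflurane replicate 9 lies with the oxygen arrays of the Pcp2-high set for Syn1, Stx1a, Vamp2 and Syp (12.00, 8.84, 12.86 and 12.40).

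Syn1 encodes synapsin I, a phosphoprotein that ties vesicles to one another and to actin. In the Pcp2-high set its signal was 10.88, 10.76, 10.72, 10.81 and 12.00 on isoflurane replicates 1, 3, 7, 8 and 9, against a lowest of 11.27, a median of 11.71 and a highest of 11.91 on the 6 oxygen arrays. Here 4 isoflurane arrays lay below every oxygen array, and replicate 9 lay above them all. The 3′/5′ ratio moved with this in the Pcp2-high set. It was 0.75, 0.71, 0.64 and 0.63 on isoflurane replicates 1, 3, 7 and 8 and 0.99 on replicate 9, against 0.71 to 0.96 on oxygen arrays. In the Pcp2-low set Syn1 read 11.81, 11.99, 12.05, 11.97 and 12.15 on isoflurane replicates 2, 4, 5, 6 and 10, against 12.67, 12.73, 12.73 and 13.02 on the oxygen arrays, without overlap. There the ratio was 1.28, 1.36, 1.59 and 1.50 on replicates 2, 4, 5 and 6 and 0.75 on replicate 10, against 0.76 to 1.23 on oxygen arrays. Lower Syn1 thus went with a higher ratio on replicates 2, 4, 5 and 6. The part of the ratio was not tested beyond the fit with it as a covariate, which takes 1 slope for both sets. The difference in Syn1 signal was -0.70 ± 0.13 (SE; adjusted p = 0.00873 by limma), or 0.617 times the oxygen level, and 9 of 10 isoflurane arrays lay below the oxygen mean of their set. It was -0.62 within the Pcp2-high set (p = 0.0111 unadjusted by limma, adjusted p = 0.331) and -0.79 within the Pcp2-low set (adjusted p = 0.00578 by limma). Without isoflurane replicates 2, 4, 5 and 6 the size was kept at -0.62 but not the call (adjusted p = 0.141 by limma).

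Stx1a encodes syntaxin-1A, the target-membrane SNARE of the presynaptic terminal. Among the Pcp2-high arrays it read 7.44, 7.32, 7.31, 7.48 and 8.84 on isoflurane replicates 1, 3, 7, 8 and 9, against 7.77, 8.60 and 9.09 (lowest, median and highest) on oxygen arrays. Among the Pcp2-low arrays it read 10.36, 10.76, 10.62, 10.69 and 11.12 on isoflurane replicates 2, 4, 5, 6 and 10, against 11.68, 11.55, 11.64 and 11.90 on oxygen arrays. All 5 isoflurane arrays of the Pcp2-low set lay below its 4 oxygen arrays, and in the Pcp2-high set all but replicate 9 did. The difference was -0.89 ± 0.20 (SE; adjusted p = 0.0157 by limma), the largest among the called members. Leaving out isoflurane replicates 2, 4, 5 and 6 gave -0.76 (adjusted p = 0.190 by limma).

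Vamp2 encodes synaptobrevin-2, the vesicle SNARE that pairs with syntaxin-1A. Its signal in the Pcp2-high set was 11.81, 11.70, 11.62, 11.69 and 12.86 on isoflurane replicates 1, 3, 7, 8 and 9, against 12.09, 12.52 and 12.77 (lowest, median and highest) on oxygen arrays. Over the Pcp2-low set it was 12.40, 12.43, 12.69, 12.55 and 12.56 on isoflurane replicates 2, 4, 5, 6 and 10, against 12.87, 13.27, 12.82 and 13.29 on oxygen arrays. The pattern over arrays was that of Syn1, with replicate 9 again above every oxygen array of its set. The difference was -0.55 ± 0.13 (SE; adjusted p = 0.0210 by limma), with -0.56 in the Pcp2-high set and -0.54 in the Pcp2-low set. Without isoflurane replicates 2, 4, 5 and 6 it was -0.54 (adjusted p = 0.173 by limma). As the mean of its probe sets, the dimmer of which was below the signal filter, Vamp2 gave -0.31 and did not pass (adjusted p = 0.0875 by limma). Snap25, the third SNARE of the same complex, did not pass. It read 14.27, 14.35, 14.52, 14.14 and 13.73 on isoflurane replicates 1, 3, 7, 8 and 9, against 13.65, 14.12 and 14.33 (lowest, median and highest) on oxygen arrays of the Pcp2-high set. On the Pcp2-low arrays it read 14.42, 14.55, 14.49, 14.42 and 14.30 on isoflurane replicates 2, 4, 5, 6 and 10, against 14.20, 14.48, 14.73 and 13.91 on oxygen arrays. The groups overlapped in both sets. Its mean was 14.20 ± 0.30 after isoflurane (SD, n = 5) and 14.02 ± 0.27 after oxygen (SD, n = 6) in the Pcp2-high set. In the Pcp2-low set Snap25 averaged 14.44 ± 0.09 after isoflurane (SD, n = 5) and 14.33 ± 0.35 after oxygen (SD, n = 4), and the difference over all arrays was 0.15 ± 0.11 (SE; adjusted p = 0.400 by limma).

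The 300-base windows around the starts of Syn1, Stx1a and Vamp2 are shown because these 3 were lower together, and that of Vamp1 because it shares a motif with Syn1. They run from 250 bases before the start to 50 after it, 5′ to 3′ on the gene's strand, from RefSeq on GRCr8, a rat assembly that the array values do not refer to. Windows were found for 45 of the 58 genes (49 windows). Capitals mark the motifs TGACGTCA (CRE, bound by CREB), its shorter core TGACGT (also bound by CREB), GGGCGG (GC box, bound by Sp1) and GCGGGGGCG (bound by EGR proteins), on either strand, where neighbouring matches can run into each other and the full CRE holds the core.
Syn1 (chrX:3725495-3725794, plus strand): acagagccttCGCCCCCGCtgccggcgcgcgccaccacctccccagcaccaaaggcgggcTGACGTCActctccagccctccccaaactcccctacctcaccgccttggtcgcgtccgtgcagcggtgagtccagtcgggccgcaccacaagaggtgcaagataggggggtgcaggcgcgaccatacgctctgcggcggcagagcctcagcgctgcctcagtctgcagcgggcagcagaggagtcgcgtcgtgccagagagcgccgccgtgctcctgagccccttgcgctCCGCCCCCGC
Stx1a (chr12:27306422-27306721, minus strand): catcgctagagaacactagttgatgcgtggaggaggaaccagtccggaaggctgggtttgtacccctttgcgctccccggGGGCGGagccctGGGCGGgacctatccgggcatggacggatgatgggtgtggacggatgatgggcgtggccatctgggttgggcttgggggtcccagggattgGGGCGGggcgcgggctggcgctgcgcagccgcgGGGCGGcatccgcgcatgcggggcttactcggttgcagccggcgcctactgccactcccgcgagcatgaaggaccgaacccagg
Vamp2 (chr10:54292539-54292838, plus strand): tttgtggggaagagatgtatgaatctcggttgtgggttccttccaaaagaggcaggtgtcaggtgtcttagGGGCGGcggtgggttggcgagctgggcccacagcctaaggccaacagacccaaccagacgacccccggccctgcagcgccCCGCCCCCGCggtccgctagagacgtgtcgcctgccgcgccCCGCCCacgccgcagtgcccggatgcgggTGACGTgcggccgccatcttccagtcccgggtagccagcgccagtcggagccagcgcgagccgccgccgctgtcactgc
Vamp1 (chr4:159698644-159698943, plus strand): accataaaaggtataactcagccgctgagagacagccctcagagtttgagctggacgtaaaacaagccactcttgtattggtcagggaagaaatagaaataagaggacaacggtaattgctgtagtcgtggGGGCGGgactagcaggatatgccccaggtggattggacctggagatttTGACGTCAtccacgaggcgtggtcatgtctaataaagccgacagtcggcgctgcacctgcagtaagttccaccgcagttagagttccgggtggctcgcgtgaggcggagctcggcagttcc

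The full CRE letters stood in 2 of the 49 member windows, those of Syn1 and Vamp1 (4.08%, against 1.83% of all 33469 rat windows of the same length). The core TGACGT stood in 12.2% of member windows and 7.94% of all, the GC box in 65.3% and 33.1%, and the EGR letters in 18.4% and 2.73%. TATAAA stood in 6.12% of member windows and 14.2% of all. Member windows had a median GC content of 62.7%, against 51.7% over all windows. Both GC box and EGR letters stood in the windows of Syn1, Vamp2 and Syp, which were called lower, and also in those of Cplx1, Stxbp5, Syn2, Syt1, Syt16 and Vamp4, which were not. That of Stx1a held 4 GC boxes and no EGR letters. Vamp1, with the same full CRE as Syn1, had a difference of -0.04 ± 0.07 (SE; adjusted p = 0.751 by limma). A match describes these letters and says nothing of binding.

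Synaptophysin, the vesicle protein that binds VAMP2, is encoded by Syp. Among the Pcp2-low arrays it read 12.01, 12.08, 12.16, 11.96 and 12.25 on isoflurane replicates 2, 4, 5, 6 and 10, against 12.61, 12.67, 12.53 and 12.82 on oxygen arrays, without overlap. Over the Pcp2-high set it read 12.08, 12.00, 11.95, 12.00 and 12.40 on isoflurane replicates 1, 3, 7, 8 and 9, against 12.10, 12.17 and 12.49 (lowest, median and highest) on oxygen arrays. The difference over all arrays was -0.33 ± 0.08 (SE; adjusted p = 0.0218 by limma). It was -0.57 in the Pcp2-low set and -0.14 in the Pcp2-high set, a gap of 0.42 that just missed the threshold (adjusted p = 0.0524 for the interaction by limma). Without oxygen replicate 4 the adjusted p was 0.0527 by limma, with a difference of -0.29. Leaving out isoflurane replicates 2, 4, 5 and 6 gave -0.20 (adjusted p = 0.264 by limma). Syngr3, a synaptogyrin of the same membrane, lay just outside the threshold at -0.30 ± 0.09 (SE; adjusted p = 0.0517 by limma).

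Among the synaptotagmins, Syt3 and Syt5 were lower. Syt3, a sensor with high calcium affinity, read 9.38, 9.37, 9.06, 9.34 and 9.55 on isoflurane replicates 2, 4, 5, 6 and 10, against 9.84, 10.03, 9.81 and 10.37 on oxygen arrays of the Pcp2-low set. In the Pcp2-high set it read 9.71, 9.62, 9.21, 9.61 and 10.38 on isoflurane replicates 1, 3, 7, 8 and 9, against 9.84, 10.28 and 10.85 (lowest, median and highest) on oxygen arrays. Its difference was -0.63 ± 0.14 (SE; adjusted p = 0.0144 by limma), -0.59 in the Pcp2-high set and -0.67 in the Pcp2-low set. Fitted without isoflurane replicates 2, 4, 5 and 6 it was -0.56 (adjusted p = 0.170 by limma). Syt5, a further calcium-binding synaptotagmin, read 9.58, 9.83, 9.70, 9.75 and 10.63 on isoflurane replicates 2, 4, 5, 6 and 10, against 10.80, 10.73, 10.61 and 11.12 on oxygen arrays of the Pcp2-low set. Among the Pcp2-high arrays Syt5 read 7.67, 7.46, 7.18, 6.92 and 7.89 on isoflurane replicates 1, 3, 7, 8 and 9, against 7.22, 7.82 and 8.72 on oxygen arrays, which overlapped. Its difference was -0.67 ± 0.19 (SE; adjusted p = 0.0394 by limma), and without isoflurane replicates 2, 4, 5 and 6 it was -0.40 (adjusted p = 0.366 by limma). Syt5 passed in 7 of the 20 fits that leave out 1 array. It was lost when any 1 of isoflurane replicates 2 to 8 or of oxygen replicates 1, 2, 3, 4, 9 and 10 was left out, at adjusted p between 0.0514 and 0.0864 by limma, and with no filter on signal (adjusted p = 0.0563 by limma).

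Syt1, the main fast calcium sensor of forebrain terminals, gave no call. Over the Pcp2-low set it read 8.57, 8.49, 8.51, 7.87 and 10.86 on isoflurane replicates 2, 4, 5, 6 and 10, against 10.95, 9.11, 9.70 and 8.84 on oxygen arrays. Over the Pcp2-high set it read 9.77, 10.56, 10.20, 10.12 and 8.94 on isoflurane replicates 1, 3, 7, 8 and 9, against 8.57, 9.43 and 10.49 (lowest, median and highest) on oxygen arrays. The 4 isoflurane arrays that stand apart were the lowest of the 9 in the Pcp2-low set, and isoflurane replicate 10 lay near the highest oxygen array. The difference was -0.13 ± 0.37 (SE; adjusted p = 0.856 by limma). The other 9 tested synaptotagmins ran from -0.60 (Syt11, adjusted p = 0.125 by limma) to 0.10 (Syt9).

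Rims1, whose product RIM1 links vesicle-bound Rab3 to calcium channels, read 9.06, 9.17, 9.15, 8.51 and 9.56 on isoflurane replicates 2, 4, 5, 6 and 10, against 10.05, 9.45, 9.65 and 9.85 on oxygen arrays of the Pcp2-low set. In the Pcp2-high set it read 9.19, 9.26, 9.46, 8.87 and 9.34 on isoflurane replicates 1, 3, 7, 8 and 9, against 9.21, 9.52 and 9.70 (lowest, median and highest) on oxygen arrays. The groups overlapped in both sets, although 10 of 10 isoflurane arrays lay below the oxygen mean of their set. The difference was -0.43 ± 0.12 (SE; adjusted p = 0.0399 by limma), and -0.23 without isoflurane replicates 2, 4, 5 and 6 (adjusted p = 0.325 by limma). Rims1 passed in 8 of the 20 fits that leave out 1 array. It was lost without isoflurane replicate 1, 2, 3, 4, 5, 6 or 8 or oxygen replicate 1, 2, 3, 4 or 7, at adjusted p between 0.0538 and 0.0859 by limma, and with no filter on signal (adjusted p = 0.0582 by limma). Its relatives gave -0.44 (Rims3, adjusted p = 0.0859 by limma) and 0.36 (Rims2, adjusted p = 0.121 by limma).

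The 4 members higher after isoflurane within the Pcp2-low set were Sv2b, Cplx2, Rims2 (0.66, adjusted p = 0.0239 by limma) and Stxbp3 (0.32, adjusted p = 0.0489 by limma), where 11.2% of all probe sets were higher. Cplx2 encodes complexin-2, which binds the assembled SNARE bundle. It read 13.44, 13.61, 13.50, 13.66 and 11.13 on isoflurane replicates 2, 4, 5, 6 and 10, against 10.98, 11.47, 11.46 and 10.46 on oxygen arrays of that set. The 4 isoflurane arrays that stand apart lay above every other array of the 20, and isoflurane replicate 10 lay among the oxygen arrays. Among the Pcp2-high arrays it read 10.59, 10.52, 10.50, 10.24 and 9.44 on isoflurane replicates 1, 3, 7, 8 and 9, against 9.30, 10.46 and 10.83 (lowest, median and highest) on oxygen arrays. The difference was 1.97 ± 0.47 in the Pcp2-low set (SE; adjusted p = 0.0181 by limma) and -0.02 ± 0.28 in the Pcp2-high set (SE). With the set as a term it was 0.88 (adjusted p = 0.120 by limma), with -0.01 when isoflurane replicates 2, 4, 5 and 6 were left out, and it passed at 1.04 without isoflurane replicate 9 (adjusted p = 0.0455 by limma).

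Sv2b, a transporter-like glycoprotein of the vesicle membrane, was also highest on the 4 isoflurane arrays that stand apart, but here isoflurane replicate 10 too lay above every oxygen array of its set. It read 14.54, 14.24, 14.28, 14.65 and 13.26 on isoflurane replicates 2, 4, 5, 6 and 10, against 13.17, 12.92, 12.94 and 11.99 on oxygen arrays of the Pcp2-low set. Over the Pcp2-high set it read 13.46, 13.34, 13.05, 13.08 and 12.62 on isoflurane replicates 1, 3, 7, 8 and 9, against 12.68, 13.13 and 13.27 (lowest, median and highest) on oxygen arrays. The difference was 1.44 ± 0.29 in the Pcp2-low set (SE; adjusted p = 0.0117 by limma) and 0.06 ± 0.15 in the Pcp2-high set (SE). With the set as a term it was 0.68 (adjusted p = 0.0633 by limma), and it passed at 0.79 without isoflurane replicate 9 (adjusted p = 0.0189 by limma) and at 0.74 without isoflurane replicate 10 (adjusted p = 0.0410 by limma). Its relative Sv2a, the binding site of the antiepileptic levetiracetam, read 11.45, 11.39, 11.38, 11.50 and 10.98 on isoflurane replicates 2, 4, 5, 6 and 10, against 11.06, 11.11, 11.05 and 11.32 on oxygen arrays of the Pcp2-low set. Sv2a read 10.85, 10.61, 10.71, 10.59 and 11.35 on isoflurane replicates 1, 3, 7, 8 and 9, against 10.52, 11.23 and 11.40 (lowest, median and highest) on oxygen arrays of the Pcp2-high set, with overlap. There Sv2a averaged 10.82 ± 0.31 after isoflurane (SD, n = 5) and 11.11 ± 0.32 after oxygen (SD, n = 6), and its difference over all arrays was -0.07 ± 0.12 (SE; adjusted p = 0.753 by limma).

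The difference between the sets in the isoflurane effect (Pcp2-high minus Pcp2-low) was tested as an interaction. It passed for 3 of 48 members (limma, adjusted p under 0.05), where 10.2% of all probe sets passed. Of these probe sets 74.7% had a negative interaction, which became 63.5% with quantile normalization and 27.2% with arrays centred on their medians, a centring that moved the median interaction of all probe sets to 0.25. These were Sv2b at -1.37 ± 0.34 (SE; adjusted p = 0.0161), Cplx2 at -1.99 ± 0.57 (SE; adjusted p = 0.0318) and Stx7 at 0.40 ± 0.12 (SE; adjusted p = 0.0361). Stx7, an endosomal syntaxin, read 12.13, 12.10, 12.13, 12.09 and 11.86 on isoflurane replicates 1, 3, 7, 8 and 9, against 11.73, 11.92 and 12.00 (lowest, median and highest) on oxygen arrays of the Pcp2-high set. In the Pcp2-low set it read 11.77, 12.00, 12.07, 11.94 and 12.10 on isoflurane replicates 2, 4, 5, 6 and 10, against 12.16, 12.16, 12.39 and 12.09 on oxygen arrays. Its differences within the sets, 0.17 and -0.22, did not pass on their own (adjusted p = 0.377 and 0.130 by limma), and its interaction was 0.29 after quantile normalization (adjusted p = 0.0584 by limma). Without isoflurane replicates 2, 4, 5 and 6 the Pcp2-low set keeps 1 isoflurane array, replicate 10, which is too few to test the interaction. Its size was then -0.44 for Sv2b, -0.05 for Cplx2 and 0.28 for Stx7. Over the fits that leave out 1 array it passed for 1 to 10 members. It passed for 1 member without isoflurane replicate 2, 4, 6 or 8, and for 5 without isoflurane replicate 9 or oxygen replicate 10. Without isoflurane replicate 10 it passed for 10. Over all probe sets it passed for 1109, 1163, 1161 and 1354 without isoflurane replicates 2, 4, 6 and 8 in turn. It passed for 2287 without isoflurane replicate 9, 2214 without oxygen replicate 10 and 4303 without isoflurane replicate 10, against 1897 with all arrays. Member counts thus rose and fell with those of all probe sets over these named fits, and are not read as a result about the members. Sv2b passed in every one of the fits that leave out 1 array. Cplx2 was lost when any 1 of isoflurane replicates 2, 4, 5, 6 and 8 or of oxygen replicates 4 and 8 was left out (adjusted p between 0.0521 and 0.0764 by limma). Stx7 was lost when any 1 of isoflurane replicates 1, 2, 3, 4, 6, 7 and 8 or of oxygen replicates 2, 3, 5 and 7 was left out (adjusted p between 0.0525 and 0.0903 by limma). For Syn1, Stx1a, Vamp2 and Syt3 the interaction was 0.18, 0.16, -0.02 and 0.08 (adjusted p between 0.704 and 0.972 by limma).

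**Figure D2:**
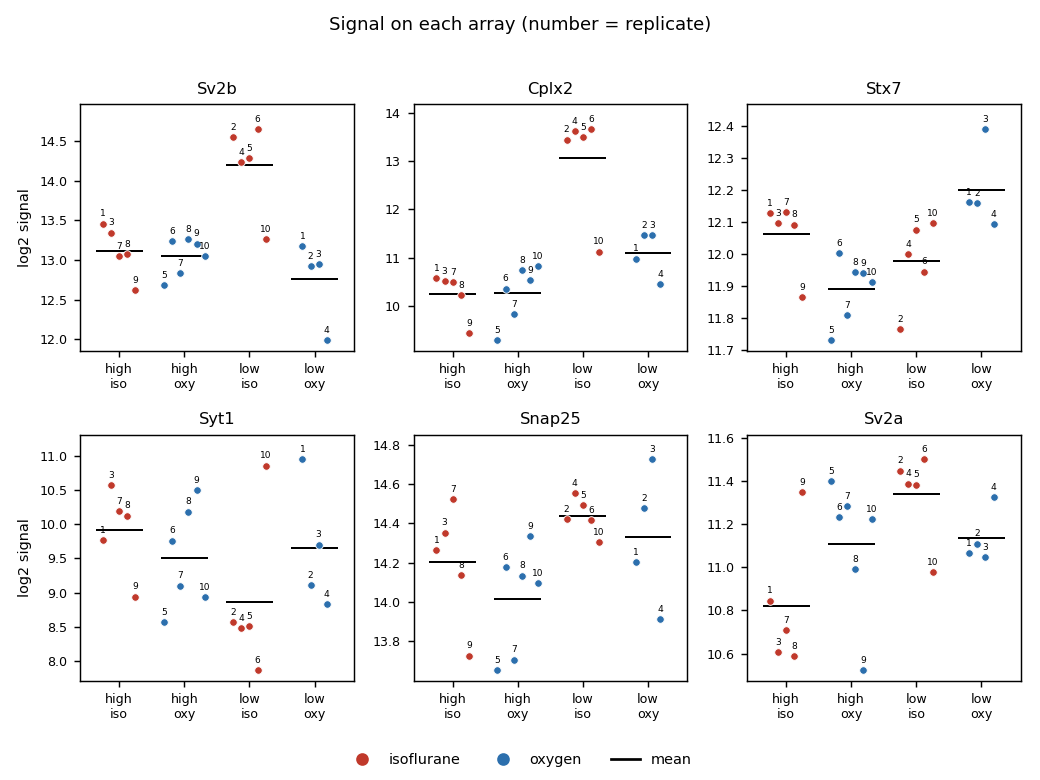
Log2 signal (vertical axis) of Sv2b, Cplx2 and Stx7, and of Syt1, Snap25 and Sv2a for comparison, 1 point per array numbered by replicate, in isoflurane (red) and oxygen (blue) arrays of both sets, with the mean as a bar. Isoflurane replicates 2, 4, 5 and 6 lie highest for Cplx2 (13.44 to 13.66) and Sv2b (14.24 to 14.65) and lowest of their set for Syt1 (7.87 to 8.57).

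**Figure D3:**
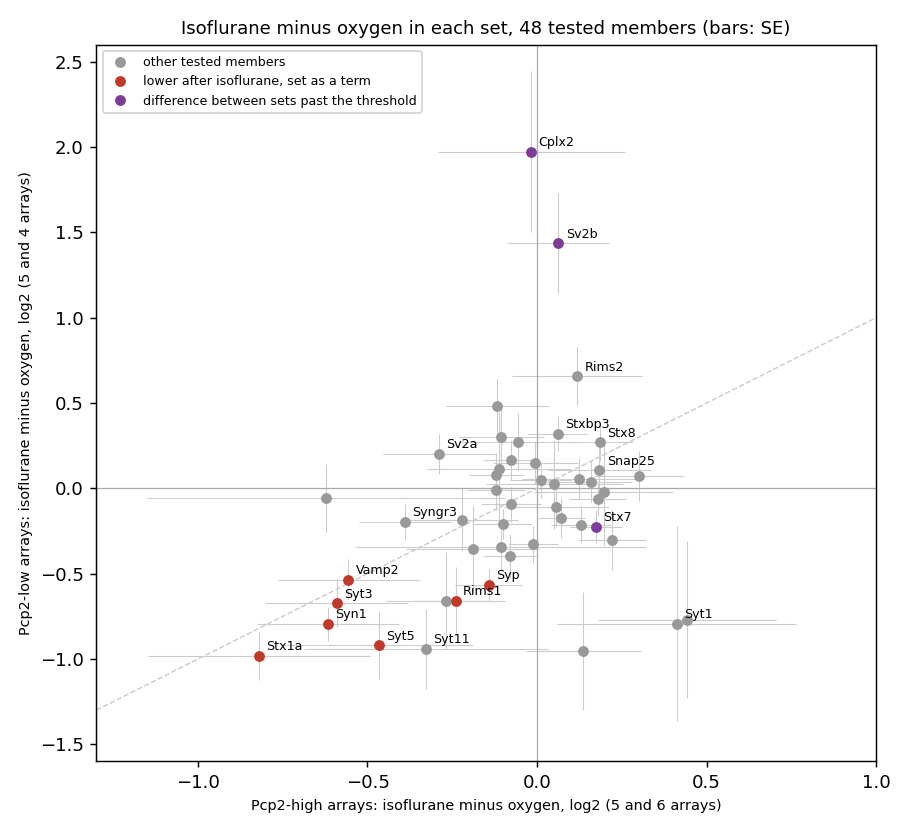
Difference in log2 signal between isoflurane and oxygen within the Pcp2-high set (horizontal axis) and within the Pcp2-low set (vertical axis) for the 48 tested members, with SE as bars and the line of equal differences dashed. Syn1, Stx1a, Vamp2 and Syt3 lie near that line, while Cplx2 (-0.02 and 1.97) and Sv2b (0.06 and 1.44) lie far above it.

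Members outside these called genes gave mostly small values. Cplx1, the complexin of fast synapses, read 13.09, 13.01, 13.04, 12.96 and 13.08 on isoflurane replicates 1, 3, 7, 8 and 9, against 13.01, 13.05 and 13.48 (lowest, median and highest) on oxygen arrays of the Pcp2-high set. On the Pcp2-low arrays it read 12.68, 12.83, 12.59, 12.89 and 12.94 on isoflurane replicates 2, 4, 5, 6 and 10, against 12.76, 12.78, 13.02 and 12.96 on oxygen arrays. The groups overlapped in both sets. Cplx1 averaged 13.04 ± 0.05 after isoflurane (SD, n = 5) and 13.11 ± 0.18 after oxygen (SD, n = 6) in the Pcp2-high set. Among the Pcp2-low arrays Cplx1 averaged 12.79 ± 0.15 after isoflurane (SD, n = 5) and 12.88 ± 0.13 after oxygen (SD, n = 4), and the difference was -0.08 ± 0.06 (SE; adjusted p = 0.415 by limma). Stx8, an endosomal syntaxin, lay just outside the threshold at 0.22 ± 0.07 (SE; adjusted p = 0.0552 by limma). The other uncalled syntaxins and SNAPs ran down to -0.22 (Stx5, a Golgi syntaxin, adjusted p = 0.0746 by limma). The uncalled VAMPs, which serve the Golgi, endosomes and other traffic or, as Vamp1, release, ran from -0.15 (Vamp3) to 0.20 (Vamp5). The 4 syntaxin-binding proteins ran from 0.04 (Stxbp2) to 0.18 (Stxbp3, the Munc18 of many tissues). The second tested synapsin, Syn2, gave 0.08 ± 0.12 (SE; adjusted p = 0.703 by limma). The 10 members below the signal filter were Syt6, Syt7, Syt10, Syt15, Syn3, Stx11, Stx17, Cplx3, Sv2c and Syngr1, and none of them was tested.

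Several genes had more than 1 probe set, and these did not always go together. Among 16 genes with several tested probe sets, the isoflurane differences had opposite signs in 7. Of the 18 tested probe sets other than the brightest, 4 were lower after isoflurane and 0 higher, where 4.79% of all probe sets were lower. Those 4 were the second probe sets of Stx1a (-1.33 ± 0.34, SE; adjusted p = 0.0273 by limma), Syn1 (-0.81 ± 0.20, SE; adjusted p = 0.0256 by limma), Syt3 (-0.71 ± 0.18, SE; adjusted p = 0.0276 by limma) and Cplx1 (-0.75 ± 0.19, SE; adjusted p = 0.0262 by limma). None of the 4 passed when isoflurane replicates 2, 4, 5 and 6 were left out (-0.78, -0.50, -0.47 and -0.30, adjusted p between 0.223 and 0.312 by limma). Those of Stx1a, Syn1 and Syt3 matched the sign of their brightest probe set. Cplx1 did not match its own in size, since its brightest probe set differed by -0.08. On isoflurane replicates 2, 4, 5 and 6 the second Stx1a probe set read 7.56 to 7.87, against 9.93 on isoflurane replicate 10 and 8.98 to 10.40 on oxygen arrays of the Pcp2-low set. That of Syn1 read 9.37 to 9.68 on them, against 10.40 on replicate 10 and 10.40 to 11.61 on those oxygen arrays. That of Syt3 read 5.95 to 7.15 on them and 6.92 on replicate 10, against 7.66 to 8.29.

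The dimmer Cplx1 probe set read 9.23, 9.19, 8.97 and 9.19 on isoflurane replicates 2, 4, 5 and 6, against 10.63 on isoflurane replicate 10 and 10.08 to 10.95 on the oxygen arrays of that set. The dimmer Vamp1 probe set read 9.16, 9.19, 8.80 and 8.89 on the same 4 arrays, against 10.73 on isoflurane replicate 10 and 10.25 to 10.81 on oxygen arrays. The dimmer Syt4 probe set read 8.66, 8.95, 8.72 and 8.40 on them, against 11.42 on isoflurane replicate 10 and 10.05 to 11.28 on oxygen arrays. On the brighter probe sets of Syt4 and Vamp1 the same arrays spanned 11.97 to 12.31 and 11.50 to 11.73, against 12.11 to 12.34 and 11.74 to 12.07 on oxygen arrays. These 4 arrays, which had the highest 3′/5′ ratios of all 20, were thus the lowest of their set on these 3 dimmer probe sets. They were also the lowest on the dimmer probe sets of Stx1a and Syn1. The part of RNA integrity in this was not tested. Sv2b was the reverse case, with both tested probe sets higher after isoflurane in the Pcp2-low set (1.44 and 0.90, adjusted p = 0.0117 and 0.0168 by limma).

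**Figure D4:**
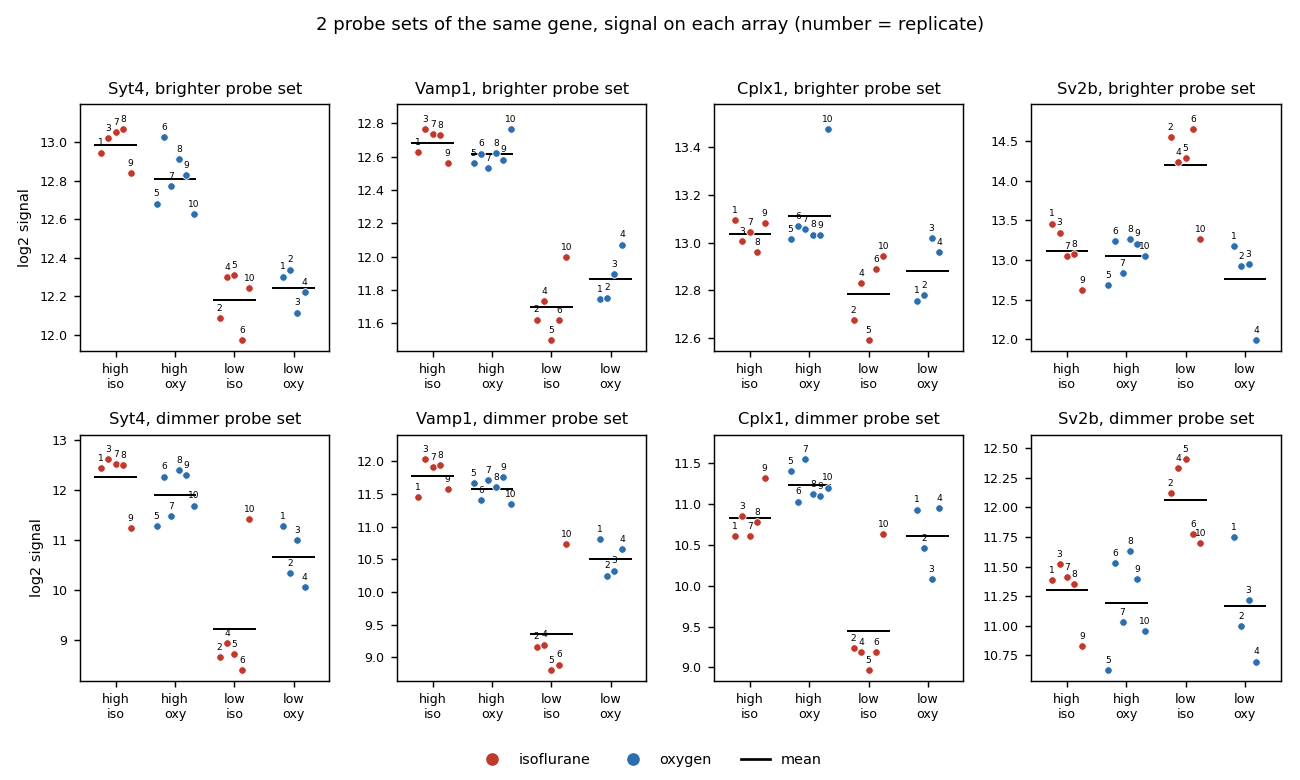
Log2 signal (vertical axis) of the brighter (upper row) and dimmer (lower row) tested probe set of Syt4, Vamp1, Cplx1 and Sv2b, 1 point per array numbered by replicate, in isoflurane (red) and oxygen (blue) arrays of both sets, with the mean as a bar. Isoflurane replicates 2, 4, 5 and 6 lie at 8.40 to 8.95 on the dimmer Syt4 probe set and at 11.97 to 12.31 on the brighter one.

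The larger differences among the members lay between the 2 sets of arrays, which are given as a description with no test because the sets were parted by a measured signal. Of the 48 tested members, 6 had every Pcp2-high array above every Pcp2-low array (12.5%, against 9.47% of all tested probe sets), and 5 had every one below (10.42%, against 9.34%). Among these, Syt2 and Syt9 had 9 and 7 Pcp2-low arrays under the signal filter, and Syt16 had 9 Pcp2-high arrays under it. Those 3 passed the filter through the set where they were high, which favours separation. The shares are not read as a result about the members. Of all 58 members 13 differed by more than 1 log2 unit either way. The median size of the difference was 0.31 over tested members and 0.39 over all tested probe sets.

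The synaptotagmins were the most divided role. Syt9, Syt2, Syt12 and Syt4 were higher on Pcp2-high arrays without overlap, and Syt16, Syt17, Syt5 and the untested Syt10 were lower without overlap. Syt10 ran from 3.98 to 6.11 on Pcp2-high arrays and from 6.25 to 6.92 on Pcp2-low arrays, so its separation lay mostly under the signal filter. Values under the signal filter of 6.62 are not shown to be above background, so for genes that have them a fold is given as a lower limit, with such values set to 6.62. Syt2, a fast calcium sensor known from hindbrain and cerebellar synapses, ran from 7.00 through a median of 7.62 to 8.18 on Pcp2-high arrays and from 5.33 through 6.01 to 6.47 on Pcp2-low arrays, all 9 of which were under the filter. Syt9, another fast sensor, ran from 7.72 through 8.58 to 8.81 on Pcp2-high arrays and from 5.99 through 6.08 to 7.15 on Pcp2-low arrays. With 7 of 9 Pcp2-low arrays under the filter, Syt9 was at least 3.34 times higher on Pcp2-high arrays. Syt12 ran from 10.02 through 10.69 to 11.10 on Pcp2-high arrays and from 9.14 through 9.55 to 9.90 on Pcp2-low arrays. Syt16 ran from 4.31 through 5.41 to 7.39 on Pcp2-high arrays and from 9.40 through 9.95 to 10.40 on Pcp2-low arrays. With 9 of 11 Pcp2-high arrays under the filter, it was at least 9.02 times higher on Pcp2-low arrays. Syt17 ran from 5.63 through 6.69 to 8.08 on Pcp2-high arrays and from 9.99 through 10.41 to 10.79 on Pcp2-low arrays, at least 9.53 times higher on Pcp2-low arrays, with 3 Pcp2-high arrays under the filter. Syt5 ran from 6.92 through 7.67 to 8.72 on Pcp2-high arrays and from 9.58 through 10.61 to 11.12 on Pcp2-low arrays. Syt1, by contrast, averaged 9.69 ± 0.70 on Pcp2-high arrays (SD, n = 11) and 9.21 ± 1.08 on Pcp2-low arrays (SD, n = 9), within its spread.

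Stx1a and Stx3 ran in opposite directions between the sets, as did Vamp2 and Vamp1 in their means. Stx1a ran from 7.31 through a median of 7.85 to 9.09 on Pcp2-high arrays and from 10.36 through 11.12 to 11.90 on Pcp2-low arrays, a ratio of means of 8.12 in favour of Pcp2-low arrays. Stx3, the syntaxin of ribbon synapses and polarised cells, ran the other way, from 7.79 through 8.32 to 8.60 on Pcp2-high arrays and from 6.90 through 7.40 to 7.74 on Pcp2-low arrays. Vamp1, the synaptobrevin of hindbrain and spinal cord, averaged 12.65 ± 0.09 on Pcp2-high arrays (SD, n = 11) and 11.77 ± 0.19 on Pcp2-low arrays (SD, n = 9), without overlap. Vamp2 averaged 12.24 ± 0.48 on Pcp2-high arrays (SD, n = 11) and 12.76 ± 0.33 on Pcp2-low arrays (SD, n = 9), with overlap. Snap25 differed by -0.29, and its sets overlapped. Stxbp6, encoding amisyn, a SNARE-binding protein, averaged 9.27 ± 0.20 on Pcp2-high arrays (SD, n = 11) and 11.21 ± 0.17 on Pcp2-low arrays (SD, n = 9), without overlap and 3.82 times higher on Pcp2-low arrays.

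Of the complexins, Cplx1 was the more even, with a difference of 0.25, while Cplx2 averaged 10.27 ± 0.51 on Pcp2-high arrays (SD, n = 11) and 12.19 ± 1.33 on Pcp2-low arrays (SD, n = 9). That gap was -2.81 among isoflurane arrays and -0.82 among oxygen arrays, and the isoflurane arrays include the 4 that stand apart. Cplx3, which was below the signal filter, averaged 4.10 ± 2.08 on Pcp2-high arrays (SD, n = 11) and 8.13 ± 0.29 on Pcp2-low arrays (SD, n = 9), and oxygen replicate 9 at 8.06 made the sets overlap. All 7 vesicle membrane proteins and all 3 synapsins overlapped between the sets. Syn1 averaged 11.37 ± 0.50 on Pcp2-high arrays (SD, n = 11) and 12.35 ± 0.44 on Pcp2-low arrays (SD, n = 9), and Syp averaged 12.16 ± 0.17 on Pcp2-high arrays and 12.34 ± 0.32 on Pcp2-low arrays (SD). The 3 RIM genes differed by -0.03 (Rims1), 0.06 (Rims2) and 0.73 (Rims3), with overlap.

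**Figure D5:**
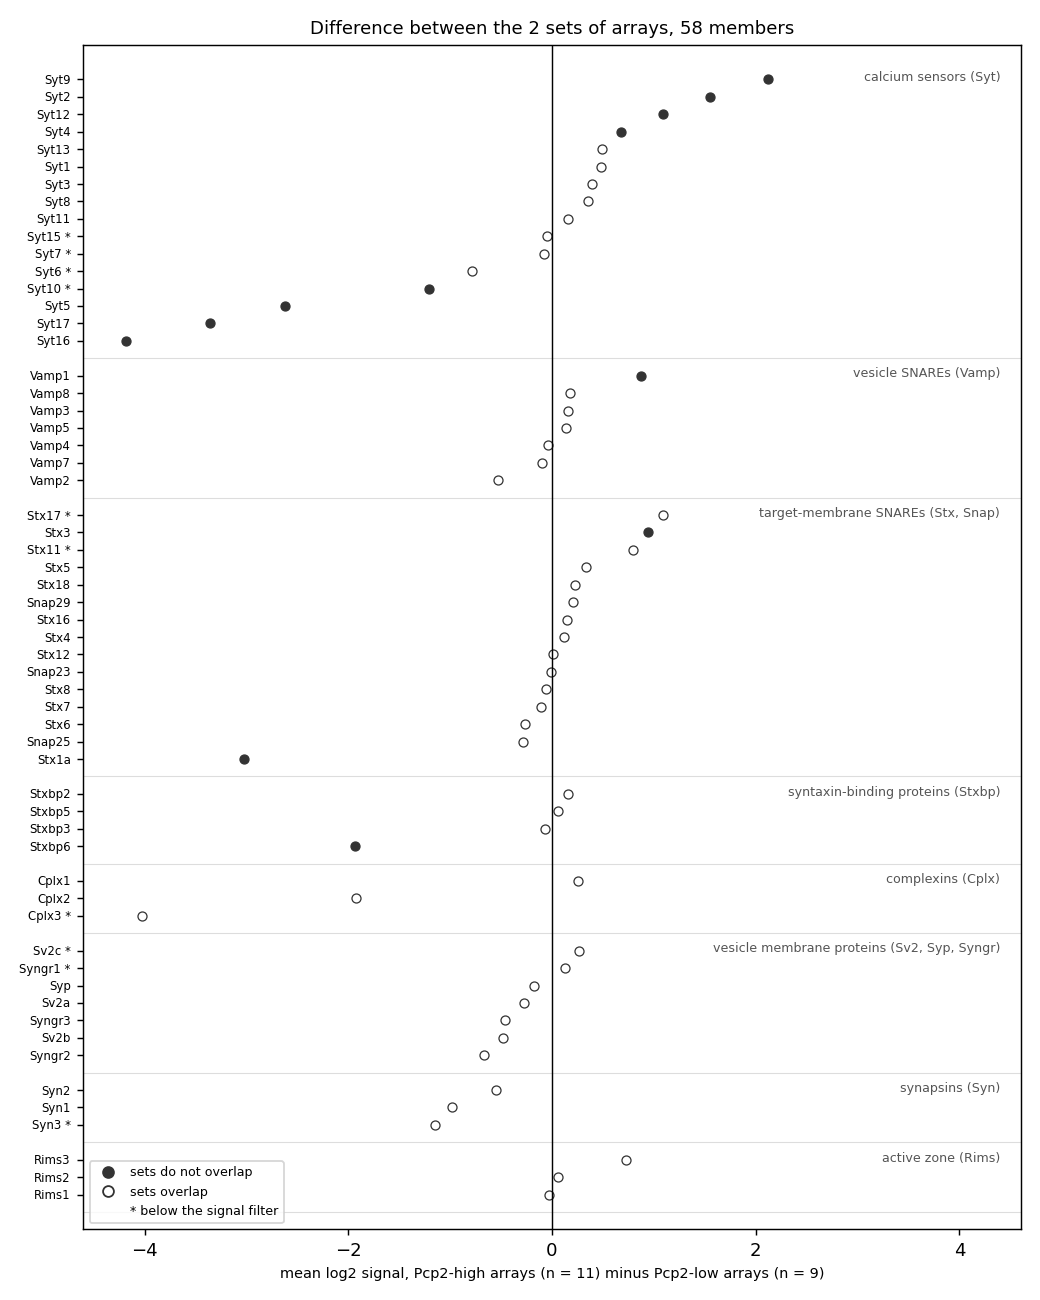
Mean log2 signal on Pcp2-high arrays (n = 11) minus that on Pcp2-low arrays (n = 9) for the 58 members (rows, grouped by role), with filled points where no array of one set reaches into the other. Filled points run from Syt16 (-4.18), Syt17 (-3.36) and Stx1a (-3.02) to Syt2 (1.55) and Syt9 (2.12), as measured, including values under the signal filter.

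Other genes of vesicle release outside the symbol rule were taken from a list of 61, of which 57 were named on the array and 52 tested. Of these 6 were lower and 2 higher after isoflurane with the set as a term, with a median difference of -0.13, where 4.79% of all probe sets were lower and 2.58% higher. The 6 with the lowest p were Ppfia3, Slc6a17, Erc1, Scamp4, Dnm3 and Apba1. Ppfia3, encoding the active-zone protein liprin-alpha-3, differed by -0.78 ± 0.14 (SE; adjusted p = 0.00797 by limma) and Erc1, encoding the active-zone scaffold ELKS, by -0.33 ± 0.07 (SE; adjusted p = 0.0112 by limma). Apba1, encoding the adaptor Mint1, differed by -0.41 ± 0.10 (SE; adjusted p = 0.0211 by limma). Slc6a17, a vesicular amino acid transporter, differed by -0.65 ± 0.12 (SE; adjusted p = 0.00873 by limma) and Scamp4, a secretory carrier membrane protein, by -0.49 ± 0.10 (SE; adjusted p = 0.0124 by limma). Dnm3, a dynamin of membrane retrieval, was higher by 1.00 ± 0.23 (SE; adjusted p = 0.0172 by limma), with 1.86 in the Pcp2-low set and 0.29 in the Pcp2-high set. Slc6a17 and Scamp4 also passed with no set term (adjusted p = 0.0452 and 0.0490 by limma), and 0 of the 52 passed without isoflurane replicates 2, 4, 5 and 6.

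Across the 20 arrays, with values centred within each set, members ranged from those that ran closely with Syn1, through many near 0, to some that ran against it. The correlation with Syn1 was 0.94 for Vamp2, 0.92 for Syt3, 0.88 for both Syp and Syngr3 and 0.82 for Stx1a. It was -0.63 for both Cplx2 and Snap25, -0.65 for Stx8, -0.69 for Rims2 and -0.71 for Sv2b. It was 0.03 for Vamp8 and -0.02 for Stx12, and for Stx7 it was -0.91 over Pcp2-high arrays and 0.72 over Pcp2-low arrays. These are descriptions over 11 and 9 arrays that share groups, scaling and RNA integrity, and the isoflurane arrays contribute to them. The tested genes most like Syn1 by this measure were Rnf208 (0.97), Cdc42bpb (0.97), Pip5k1c (0.97), Ptpn23 (0.96) and Dlgap3 (0.96). Those most like Stx1a were Tspan17, Ctxn1, Marcksl1, Pam and Lzts1 (0.94 to 0.93), and those most like Vamp2 were Prr12, Adgrl1, Atn1, Shank3 and Rnf208 (0.98 to 0.95).

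Markers of other cells were read beside these results. With the set as a term, 1 of 4 tested microglial markers was lower (Csf1r), and 0 of 7 cerebellar, 0 of 5 cortical, 0 of 5 astrocyte, 0 of 4 oligodendrocyte, 0 of 3 endothelial, 0 of 2 choroid plexus and 0 of 2 blood markers passed in either direction. Of 7 neuronal markers 3 were lower, and these were the members Syn1, Stx1a and Vamp2. Over the Pcp2-low set 2 of 5 astrocyte markers (Gfap and Aldh1l1), 1 of 5 cortical (Neurod6), 1 of 4 microglial (Csf1r) and 1 of 2 choroid plexus markers (Ttr) were lower, and of 7 neuronal markers 4 were lower (the members Syn1, Stx1a and Vamp2, with Tubb3 at -0.34, adjusted p = 0.0219 by limma) and 1 was higher (Rbfox3 at 0.88, adjusted p = 0.0424 by limma). There the summed signal of the 5 astrocyte markers was 24516 to 31631 on isoflurane arrays and 24475 to 33702 on oxygen arrays, and that of the 7 cerebellar markers 870 to 7291 on isoflurane arrays and 1518 to 3224 on oxygen arrays. The part of cell makeup in the members' results was not tested.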

How the data were processed

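RNA of 20 rats was measured on Affymetrix arrays. The values deposited by the authors were linear intensities; per the submitters' processing notes, MAS5 and Affymetrix Expression Console were used, whose versions and settings are not given in the sources used here. All 20 arrays had been scaled to 1 target, with a trimmed mean (2% off each end) of 500.1 to 500.2. Such scaling makes each change relative to the average transcript, and the number of arrays limits the precision. Detection calls were not used here.

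A floor of 1 was set (2015 values lay below it) before taking log2, and nothing more was normalized. Tests covered the 18625 of 31042 non-control probe sets whose mean log2 signal exceeded the 40th percentile, 6.62. A platform annotation gave 1 symbol for 20826 probe sets and several for 436, symbols were checked by gene ID against the RefSeq table of GRCr8, and probe sets with several symbols were not named.

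Groups came from the titles. R 4.3.3 and limma 3.58.1 fitted isoflurane and array set as terms (lmFit, then eBayes with its trend option; two-sided p adjusted by Benjamini-Hochberg over all tested probe sets, threshold 0.05), and the interaction likewise. Both fits were first run on simulated data with independent noise. Those data held no arrays that stand apart and no gradient in RNA integrity, so they check the code and not the calls made here. A difference in log2 signal is isoflurane minus oxygen or Pcp2-high minus Pcp2-low. Named with values by array (lowest, median and highest for groups over 5 arrays) were the markers Syn1, Stx1a and Vamp2, core release genes, members past the threshold, and the 4 members each way that differ most between sets without overlap. Release partners were counted, with the 6 of lowest p named. Summaries and figures used Python 3.11.15 with numpy 2.4.6, pandas 2.3.3, scipy 1.17.1 and matplotlib 3.10.9. Alternatives were other normalizations, pseudocounts of 16 and 64, eBayes settings, array weights, a replicate block, the 3′/5′ covariate, other filters, the mean of a gene's probe sets, each set alone, and arrays left out. The members, the lists and the array sets were chosen with earlier results of these data known.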

Additional observations from a re-analysis of the deposited data

Results flagged for a closer look

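Within each set and group of 4 to 6 arrays, the highest or lowest array was compared with the others for 20 named members. This gave 80 groups tested. In 13 of them 1 array was separated from the rest by more of the range than Dixon's critical value allows. These 13 flags fell only on isoflurane replicates 9 and 10 and oxygen replicates 4 and 10. Chance flags about 1 in 20 independent groups. The members share the same arrays and several run together, so that rate is no measure for the count. In the Pcp2-high set, isoflurane replicate 9 was the highest of 5 isoflurane arrays for Syn1 (12.003), Stx1a (8.84), Vamp2 (12.857) and Syp (12.405). It was the lowest of the 5 for Stx7 (11.863) and Syt12 (10.019). In the Pcp2-low set, isoflurane replicate 10 was the highest of 5 isoflurane arrays for Syt1 (10.855), Syt5 (10.629) and Syt9 (7.148). It was the lowest of the 5 for Cplx2 (11.127) and Sv2a (10.978). Oxygen replicate 10 was the highest of 6 Pcp2-high oxygen arrays for Cplx1 (13.478). Oxygen replicate 4 was the lowest of 4 Pcp2-low oxygen arrays for Syt12 (9.143).

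The isoflurane effect differed between the sets (Pcp2-high minus Pcp2-low, limma interaction) for Sv2b by -1.37 (adjusted p = 0.0161), for Cplx2 by -1.99 (adjusted p = 0.0318) and for Stx7 by 0.40 (adjusted p = 0.0361). The part of the 4 isoflurane arrays that stand apart, of RNA integrity and of dissection in these values was not tested. Without those 4 arrays the Pcp2-low set keeps 1 isoflurane array, too few to test an interaction. The size of the interaction was then -0.44 for Sv2b, -0.05 for Cplx2 and 0.28 for Stx7.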

How the results depend on the processing

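Of the 7 members called lower, Syn1, Stx1a, Vamp2 and Syt3 passed in all 20 fits that leave out 1 array. The members lower numbered 7 in the fit with the set as a term, 0 with no set term, 0 in the Pcp2-high set alone, 0 without isoflurane arrays 2, 4, 5 and 6, 1 with a replicate block, and 4 to 10 over the fits that leave out 1 array. Members higher numbered 0, against 1 with array weights, gene means over probe sets, quantile normalization or the 60th-percentile filter, 4 in the Pcp2-low set alone, and 0 to 3 leaving out 1 array. All probe sets past the threshold numbered 1372, against 849 with gene means, 74 with no set term, 0 in the Pcp2-high set, 3469 in the Pcp2-low set, 29 with the replicate block, 0 without isoflurane arrays 2, 4, 5 and 6, and 480 (without oxygen replicate 4) to 2938 (without isoflurane replicate 9) leaving out 1 array. The interaction passed for 3 members and 1897 probe sets, for 12 and 3899 with arrays centred on their medians, 0 and 13 without isoflurane arrays 2, 4, 5 and 6, and 1 to 10 and 1109 to 4303 leaving out 1 array. Members with Pcp2-high arrays all above Pcp2-low arrays numbered 6, against 10 among isoflurane arrays alone, and members all below 6, against 11 among isoflurane and 10 among oxygen arrays alone, where fewer arrays leave more room for separation. Otherwise the cause was not tested. Shares over all probe sets are not given for isoflurane or oxygen arrays alone, so these counts are not read as a result about the members. Same-numbered arrays deviated together in 4 of 10 pairs (r over 0.1, range -0.48 to 0.39), so the numbers did not pair the arrays. No alternative turned the direction of a called member. With gene means Cplx1 passed at -0.41 and Vamp2 did not (-0.31, adjusted p = 0.0875 by limma).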
